A study of Mus musculus with 75 samples.

Results

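The bone marrow of 22-month-old mice was compared with that of 3-month-old mice. The members are the bone marrow libraries that have a column in the deposited tissue table: 5 of the 75 samples of the series, from aged mice 1, 2 and 3 and from young mice 2 and 3. The library of young mouse 1 is listed in the labels and was not analysed here. All animals were untreated wild-type (WT) C57BL/6 mice, an inbred laboratory strain, and were perfused with PBS; marrow was washed out of tibia and femur and frozen at once, and total RNA was purified with miRNeasy, per the labels' protocols. The tissue experiment sampled the same mice in other organs, and the spleen libraries of aged mice 1, 2 and 3 and of young mice 1 and 3 are used below for 1 contrast. Each library came from 1 animal. The labels give no sex.

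Bone marrow is where blood cells form in the adult. Stem cells give rise to erythroid cells, which make haemoglobin, to granulocytes, which fill primary and then secondary granules with antimicrobial proteins, to monocytes, to megakaryocytes, which shed platelets, and to B lymphocytes, which pass through progenitor stages marked by the surrogate light chain and the recombinase before they carry an antigen receptor. Plasma cells, the antibody-secreting end of the B lineage, return to the marrow and live there beside reticular stromal cells that make Cxcl12. The tissue is bulk marrow, so fewer cells of a type and less RNA per cell cannot be told apart.

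The values are the authors' normalised signal per RefSeq transcript, in which 1 read was worth 0.534 to 1.63 units, and 1 transcript was kept per gene. Depth over these genes was 616907, 860291 and 1077378 reads in aged libraries 1, 2 and 3, against 319324 and 574168 reads in young libraries 2 and 3. Young library 2 was thus the shallowest, and its correlation with the other 4 over genes (Pearson's r 0.878 to 0.884, as a description) was below that among the other 4 (0.915 to 0.934). It also held the highest sum of 8 liver genes, 377 units against 123 to 242 in the other 4, and of 6 choroid plexus genes, 326 units against 102 to 237. Ttr, which is on both lists and leads the choroid plexus libraries of the series, made up 297 units of each of these sums; the part of this in the results was not tested. The label of the tissue fits its markers: S100a9, a calcium-binding protein of neutrophils, ran from 24005 to 33734 units in marrow and reached at most 565 in the other 10 tissues, and Mpo, the peroxidase of primary granules, ran from 1374 to 2010 against at most 54.6. Cd79a, a signalling chain of the B cell receptor, ran from 44.5 to 135 in marrow, below the medians of 225 to 383 in spleen and the 3 kinds of lymph node. Pax5, a B lineage transcription factor, was listed at 0 in all 5 marrow libraries.

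The 300 bases around the start of 5 genes of the B and plasma lineages are printed because their promoters hold, or lack, the short motifs known from these lineages. The sequences are RefSeq's on build GRCm38.p6, 250 bases before to 50 after the start, written along the strand of the gene. Capitals mark the ER stress response element in Creld2 and Derl3 (CCAAT and CCACG parted by 9 bases, found here on the opposite strand), the element TGACGTGG in Txndc5 and the octamer ATGCAAAT in Vpreb3 (on the opposite strand).
Jchain, chr5:88527848-88528147, strand -: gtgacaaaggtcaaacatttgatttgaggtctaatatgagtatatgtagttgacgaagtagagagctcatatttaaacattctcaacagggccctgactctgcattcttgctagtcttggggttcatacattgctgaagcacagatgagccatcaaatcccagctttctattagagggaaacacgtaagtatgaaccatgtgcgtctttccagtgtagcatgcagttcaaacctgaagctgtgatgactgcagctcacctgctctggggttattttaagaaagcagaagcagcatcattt
Creld2, chr15:88819396-88819695, strand +: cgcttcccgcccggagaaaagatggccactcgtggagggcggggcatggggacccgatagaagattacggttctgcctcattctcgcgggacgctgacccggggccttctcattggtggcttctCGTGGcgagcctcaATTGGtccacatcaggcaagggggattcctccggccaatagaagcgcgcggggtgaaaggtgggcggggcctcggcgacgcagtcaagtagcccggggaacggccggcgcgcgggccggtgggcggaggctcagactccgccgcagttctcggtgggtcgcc
Derl3, chr10:75893148-75893447, strand +: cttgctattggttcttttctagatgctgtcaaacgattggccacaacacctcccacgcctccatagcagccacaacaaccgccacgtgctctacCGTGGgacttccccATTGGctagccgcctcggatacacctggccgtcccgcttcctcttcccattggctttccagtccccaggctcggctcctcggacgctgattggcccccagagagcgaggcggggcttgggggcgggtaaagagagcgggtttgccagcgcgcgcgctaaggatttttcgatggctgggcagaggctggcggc
Txndc5, chr13:38527865-38528164, strand -: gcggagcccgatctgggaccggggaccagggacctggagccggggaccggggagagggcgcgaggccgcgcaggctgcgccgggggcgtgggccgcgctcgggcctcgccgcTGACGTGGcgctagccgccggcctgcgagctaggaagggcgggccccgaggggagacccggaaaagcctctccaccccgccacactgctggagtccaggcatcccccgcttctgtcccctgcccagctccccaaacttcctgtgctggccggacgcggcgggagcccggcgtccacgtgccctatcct
Vpreb3, chr10:75948050-75948349, strand +: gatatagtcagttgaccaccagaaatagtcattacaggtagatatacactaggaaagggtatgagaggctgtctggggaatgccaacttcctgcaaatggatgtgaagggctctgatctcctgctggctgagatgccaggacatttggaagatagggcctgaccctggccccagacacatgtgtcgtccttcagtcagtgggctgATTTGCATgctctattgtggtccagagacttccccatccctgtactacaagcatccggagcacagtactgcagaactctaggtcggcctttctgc

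Motifs were searched on both strands. The ER stress response element, which the factors Atf6 and Nfy bind, occurred in 0.119% of all 32851 promoters of this length and in those of 2 of the 18 plasma cell genes that had one, Creld2 and Derl3. The element TGACGTGG, to which Xbp1 and Atf6 bind, occurred in 0.676% of promoters and in 1 of the 18, Txndc5, at 1 of its 3 starts. The octamer, which Oct factors bind, occurred in 1.74% of promoters, in 1 of 13 B progenitor genes (Vpreb3) and in 1 of 14 B identity genes with a promoter (Blnk). The Ebf family motif, TCCC and GGGA parted by 2 bases, occurred in 0.904% of promoters, in none of the 13 and in 1 of the 14 (Cd22). The Jchain promoter held none of these 4 motifs. A match is a description of letters in the window and not a binding site.

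Few genes passed the test, and 3 of those that did are known from lymphoid cells. Of 10319 genes tested with limma on log2(value + 0.908), 5 had a Benjamini-Hochberg adjusted p under 0.05 (0.0485% of those tested). Jchain, Ccl5, Tmem176a and Pigx rose in aged marrow (4 genes, 0.0388%) and Niban3 fell (1 gene, 0.00969%). At an unadjusted p under 0.05 there were 442 higher genes (4.28%) and 239 lower genes (2.32%), and the median log2 difference over all tested genes was 0.03. All 3 aged libraries lay above both young libraries for 1235 genes (12.0%) and below both for 1010 genes (9.79%). Every fold difference below is on the log2(value + 0.908) scale, aged minus young, and values are given in the order of aged mice 1, 2 and 3 and young mice 2 and 3.

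Jchain (NM_152839), the joining chain that links IgM and IgA into polymers and that plasma cells make, was at 134, 266 and 198 units in aged marrow, against 76.7 and 59.2 in young marrow. Its log2 difference was 1.499 ± 0.26 (SE; adjusted p = 0.038, limma). The groups do not overlap, and the lowest aged value was above the highest young value by more than the gap between the young pair. Ccl5 (NM_013653), a chemokine made by T and natural killer cells, was at 104, 98.2 and 82.7 in aged marrow, against 32.6 and 38.2 in young marrow (log2 difference 1.40 ± 0.24, adjusted p = 0.038, limma). The aged libraries lay close together and the young ones too.

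Tmem176a (NM_001098271), a membrane protein known from dendritic and other myeloid cells, was at 49.9, 44.9 and 47.5 in aged marrow, against 13.1 and 17.2 in young marrow (log2 difference 1.603 ± 0.28, adjusted p = 0.038, limma). Its neighbour Tmem176b overlaps it, and with no strand stated for the counting their reads cannot be told apart; Tmem176b was at 121, 82.6 and 83.2 in aged marrow, against 44.1 and 41.1 in young marrow, and did not pass (log2 difference 1.13, adjusted p = 0.134, limma). Pigx (NM_001111025), a subunit of the mannosyltransferase that builds the GPI anchor of surface proteins, was at 40.0, 41.6 and 37.9 in aged marrow, against 14.7 and 10.5 in young marrow (log2 difference 1.61 ± 0.30, adjusted p = 0.0473, limma). The neighbouring gene Cep19 was at 22.7, 18.9 and 21.3 in aged marrow, against 14.7 and 20.05 in young marrow, with overlap between the groups.

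Niban3 (NM_001166213), a gene of B cells, was at 13.6, 9.75 and 10.7 in aged marrow, against 66.9 and 31.5 in young marrow (log2 difference -1.95 ± 0.36, adjusted p = 0.0454, limma). Both young libraries lay far above the aged ones and differed between themselves.

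**Figure D1:**
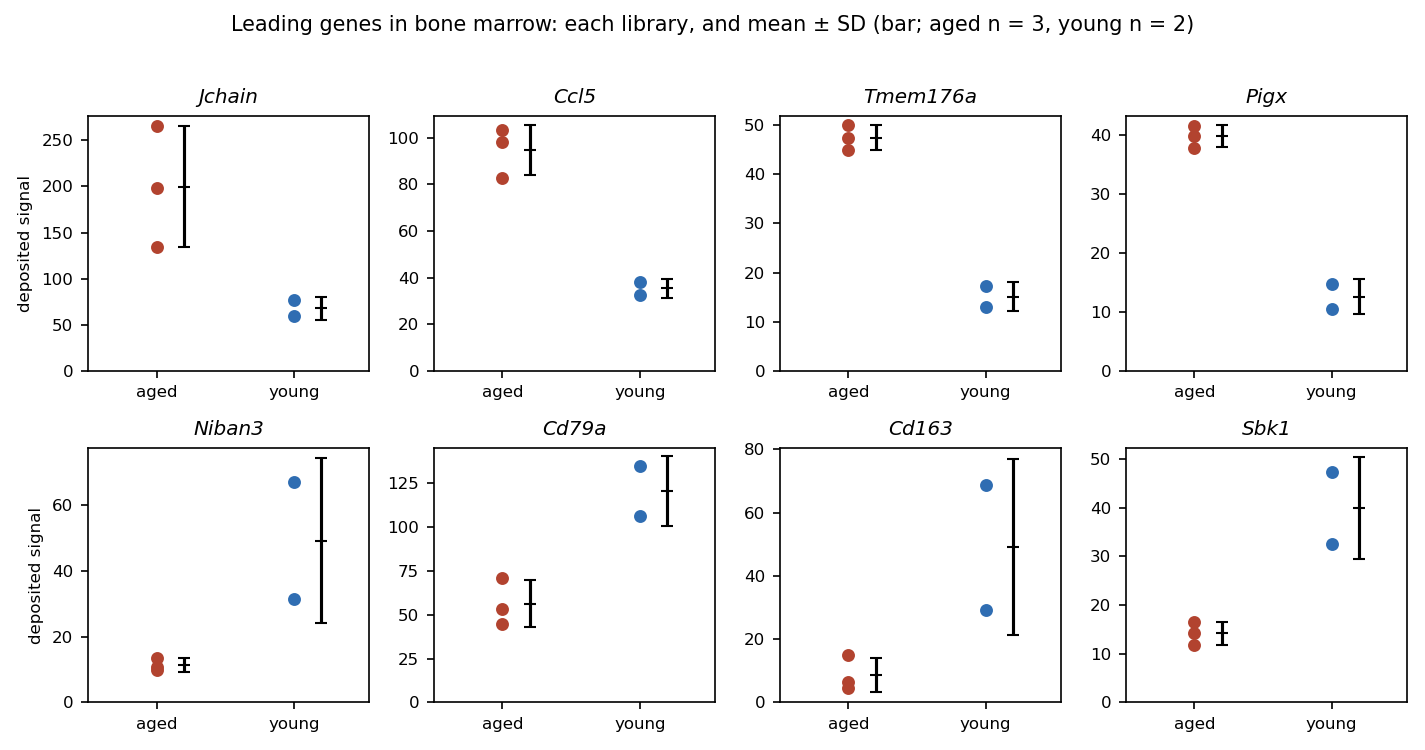
Deposited signal of 8 leading genes in each bone marrow library (points; aged left in red, young right in blue) with the group mean ± SD (bars; n = 3 aged and 2 young). The aged and young libraries do not overlap for any of the 8, which follows largely from their choice by p. Over all genes tested 12.0% lay higher and 9.79% lower without overlap. Jchain, Ccl5, Tmem176a, Pigx and Niban3 passed the adjusted test, and Cd79a, Cd163 and Sbk1 did not.

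The next genes by p did not pass. C130026I21Rik, a member of a family of near-identical copies whose reads may be shared among them, was at 24.9, 14.0 and 14.6 in aged marrow, against 3.26 and 2.55 in young marrow (log2 difference 2.26, adjusted p = 0.0622, limma). Cd163, the scavenger receptor for haptoglobin and haemoglobin on macrophages, was at 4.54, 6.50 and 14.9 in aged marrow, against 29.4 and 68.7 in young marrow (log2 difference -2.41, adjusted p = 0.0622, limma). Sbk1, a protein kinase, was at 11.8, 14.3 and 16.5 in aged marrow, against 47.3 and 32.5 in young marrow (log2 difference -1.42, adjusted p = 0.178, limma). In all 3 the groups do not overlap, which follows largely from their choice by p (12.0% of all genes lay higher and 9.79% lower without overlap). Both young values of C130026I21Rik also lay under the filter value of 3.63 units. It was tested only through aged libraries, so its direction follows largely from the filter.

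The calls did not hold when a library was left out. With limma, no gene was called when aged library 1, 2 or 3 or young library 2 was left out, with 386 to 638 genes at an unadjusted p under 0.05, and 44 were called without young library 3. Of the 5 genes, 3 were among those 44.

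Most B lymphoid genes lay lower in aged marrow, and no list member passed the adjusted test. The B progenitor list held 13 genes, of which 10 were tested: 9 had a log2 difference below 0 and 1, Il7r, above it, with a median of -0.95 beside 0.03 over all genes tested. In 4 of the 10 the aged libraries lay below both young libraries (9.79% of all genes did), and the same number had an unadjusted p under 0.05 (2.32% of all genes did, in this direction). Summed over the list, the signal was 80.6, 171 and 139 units in aged marrow, against 266 and 212 in young marrow. Every aged sum was below both young sums.

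Vpreb3, which associates with the immunoglobulin heavy chain in B progenitors and whose promoter is printed above, was at 10.9, 28.6 and 25.6 in aged marrow, against 101 and 41.1 in young marrow (log2 difference -1.64 ± 0.46, adjusted p = 0.522, limma). Vpreb1, a part of the surrogate light chain of the pre-B cell receptor, was at 8.63, 21.1 and 14.9 in aged marrow, against 28.6 and 36.3 in young marrow (log2 difference -1.15). Vpreb2, a near-identical copy of Vpreb1 whose reads may be shared with it, was at 1.36, 10.7 and 2.13 in aged marrow, against 8.97 and 10.5 in young marrow, and here aged library 2 reached the young level. Igll1, the other part of the surrogate light chain, was at 8.17, 22.1 and 8.002 in aged marrow, against 13.2 and 21.96 in young marrow (log2 difference -0.54 ± 0.44, adjusted p = 0.862, limma), and its groups overlap. Rag1, a subunit of the recombinase that assembles antigen receptor genes, was at 4.54, 7.80 and 1.60 in aged marrow, against 13.1 and 8.59 in young marrow. Dntt, which adds bases at the junctions during that assembly, was at 7.26, 11.1 and 14.4 in aged marrow, against 19.6 and 17.2 in young marrow. The surrogate light chain, recombinase and junction genes named here had log2 differences from -1.30 to -0.54.

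The B cell identity list held 20 genes, of which 18 were tested: 17 were below 0 and 1, Btk, was above, with a median of -0.59. In 7 of the 18 the aged libraries lay below both young libraries (9.79% of all genes did), and 1 (Btk) had all of them above (12.0%); 7 had an unadjusted p under 0.05, all lower (2.32%). The list sum was 593, 900 and 707 units in aged marrow, against 1169 and 1033 in young marrow. Cd79a was at 44.5, 70.9 and 53.3 in aged marrow, against 135 and 106 in young marrow (56.2 ± 13.4, SD, n = 3, and 121 ± 19.9, SD, n = 2; log2 difference -1.10 ± 0.25, adjusted p = 0.171, limma). Its partner chain Cd79b was at 72.6, 103 and 67.7 in aged marrow, against 158 and 137 in young marrow (log2 difference -0.88). Aged library 2 was the highest of the aged libraries for both chains and stayed below the young ones.

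Cd72, an inhibitory receptor of B cells, was at 24.5, 27.95 and 18.7 in aged marrow, against 48.9 and 44.9 in young marrow (log2 difference -0.98). Spib, a transcription factor of B cells and plasmacytoid dendritic cells, was at 44.5, 83.2 and 67.7 in aged marrow, against 127 and 102 in young marrow (log2 difference -0.85). The aged libraries lay below both young ones for both genes. Young library 2, the shallowest, was the highest of the 5 libraries for 12 of the 18 identity genes, and aged library 1 the lowest for 11; the part of depth in the result was not tested. The Cd79a difference kept its sign in all 14 settings run, with a range of -1.28 to -0.94.

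Plasma cell genes lay the other way. Of 19 listed genes 18 were tested, 15 with a log2 difference above 0 and 3 below, with a median of 0.74 beside 0.03 over all genes. Derl3, Tnfrsf17 and Eaf2 lay under the filter value of 3.63 units in both young libraries. They were tested only through aged libraries, so their place above 0 follows largely from the filter. In 8 of the 18 all aged libraries lay above both young libraries (12.0% of all genes did), and 8 had an unadjusted p under 0.05, all higher (4.28%); 1, Jchain, was called. Derl3 is in both counts of 8, and there too the filter favoured it. The list sum was 700, 1036 and 927 units in aged marrow, against 604 and 505 in young marrow. Aged library 1 had the lowest aged sum, and it was above both young sums.

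Xbp1, the transcription factor that drives the secretory apparatus of plasma cells, was at 69.0, 85.8 and 103 in aged marrow, against 42.4 and 44.9 in young marrow (log2 difference 0.95 ± 0.25, adjusted p = 0.348, limma). Derl3, which takes part in the removal of misfolded proteins from the endoplasmic reticulum, was at 4.54, 22.1 and 18.1 in aged marrow, against 3.26 and 1.91 in young marrow. Its difference was 1.96 ± 0.57 on the log2 scale, and aged library 1 was close to the young ones. Txndc5, a protein disulfide isomerase, was at 84.6, 100.2 and 97.2 in aged marrow, against 54.2 and 55.1 in young marrow (log2 difference 0.77). Creld2, a protein of the endoplasmic reticulum that responds to stress there, was at 43.6, 67.6 and 59.2 in aged marrow, against 22.8 and 37.2 in young marrow (log2 difference 0.92). None of these 4 passed, and in all 4 the groups do not overlap. For Derl3 the filter favoured the lack of overlap, as both its young values lay under 3.63 units. The lowest difference of the list, -0.37 with overlap, stands at Tnfrsf13b, a receptor for B cell survival factors, but its row holds the same values as that of Usp22, so their reads cannot be told apart.

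**Figure D2:**
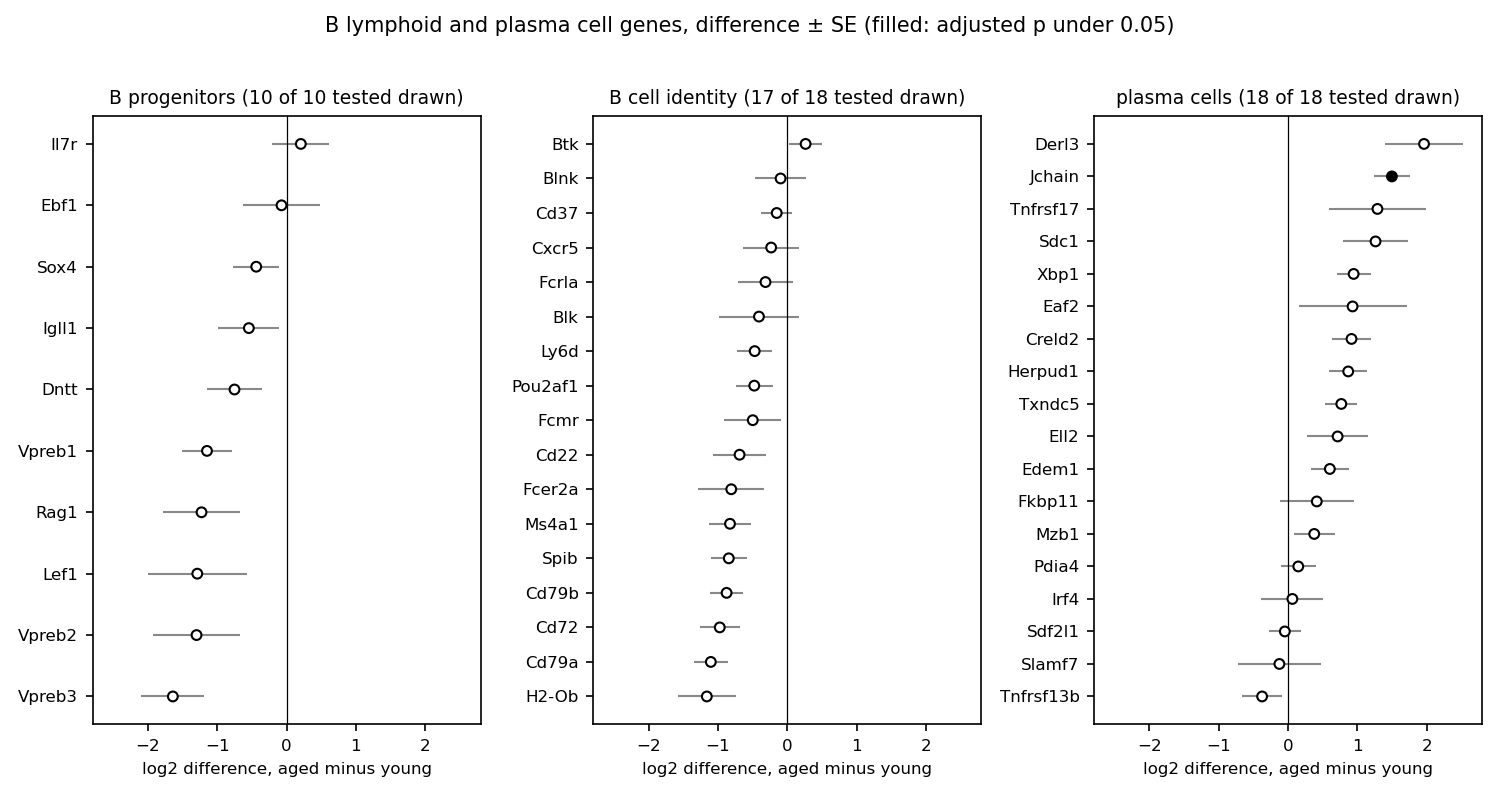
Log2 difference, aged minus young, with its standard error for tested members of the B progenitor, B cell identity and plasma cell lists (filled points passed the adjusted test). Of 10, 18 and 18 genes, 9 and 17 lay below 0 in the B lists and 15 lay above 0 in the plasma cell list, where Jchain is the filled point; 17 of the 18 B cell identity genes are drawn.

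Cytotoxic lymphocyte genes beside Ccl5 were mixed. Of 13 listed genes 10 were tested, Ccl5 among them, 8 above 0 and 2 below, with a median of 0.87. Of the 9 other than Ccl5, 7 lay above 0 and 2 below, with a median of 0.84; in 3 of these 9 the aged libraries lay above both young ones (12.0% of all genes did) and in 1 below (9.79%). Of these 3, Tbx21 was at 3.26 and 2.86 in young marrow, under the filter value of 3.63 units. It was tested only through aged libraries, so its direction follows largely from the filter. Nkg7, a membrane protein of cytotoxic granules, was at 99.0, 105 and 95.0 in aged marrow, against 44.1 and 68.7 in young marrow (log2 difference 0.84 ± 0.24, adjusted p = 0.489, limma). Klrk1, an activating receptor, was at 7.26, 11.1 and 9.07 in aged marrow, against 3.26 and 5.73 in young marrow. Klrd1, a receptor chain of natural killer cells, was at 4.54, 5.20 and 6.40 in aged marrow, against 0 and 4.77 in young marrow. Gzma, a granule protease, lay the other way, at 3.63, 0.650 and 5.33 in aged marrow, against 8.16 and 17.2 in young marrow (log2 difference -1.86 ± 0.62, adjusted p = 0.575, limma). Without young library 2 the median of the list, Ccl5 included, was 0.26, against 0.87 with it.

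T cell genes were split, with 14 of 17 tested, 8 above 0 and 6 below, and a median of 0.10. Of the 8, Cd5 lay under the filter value in both young libraries, so its place above 0 follows largely from the filter. Cd8a, the co-receptor of cytotoxic T cells, was at 2.72, 3.25 and 2.13 in aged marrow, against 9.79 and 10.5 in young marrow, and Cd8b1, its partner chain, at 7.26, 6.50 and 3.20, against 13.1 and 7.64. All aged values of Cd8a lay under the filter value of 3.63 units. It was tested only through the young libraries, so its direction was fixed by the filter. Cd3e, a chain of the T cell receptor complex, was at 20.9, 24.1 and 19.7 in aged marrow, against 4.90 and 16.2 in young marrow. The aged libraries lay below both young ones for the Cd8 chains, 2 of the 14 (9.79% of all genes did). They lay above both for Cd3e, 1 of the 14 (12.0% of all genes did), and no T cell gene passed.

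**Figure D3:**
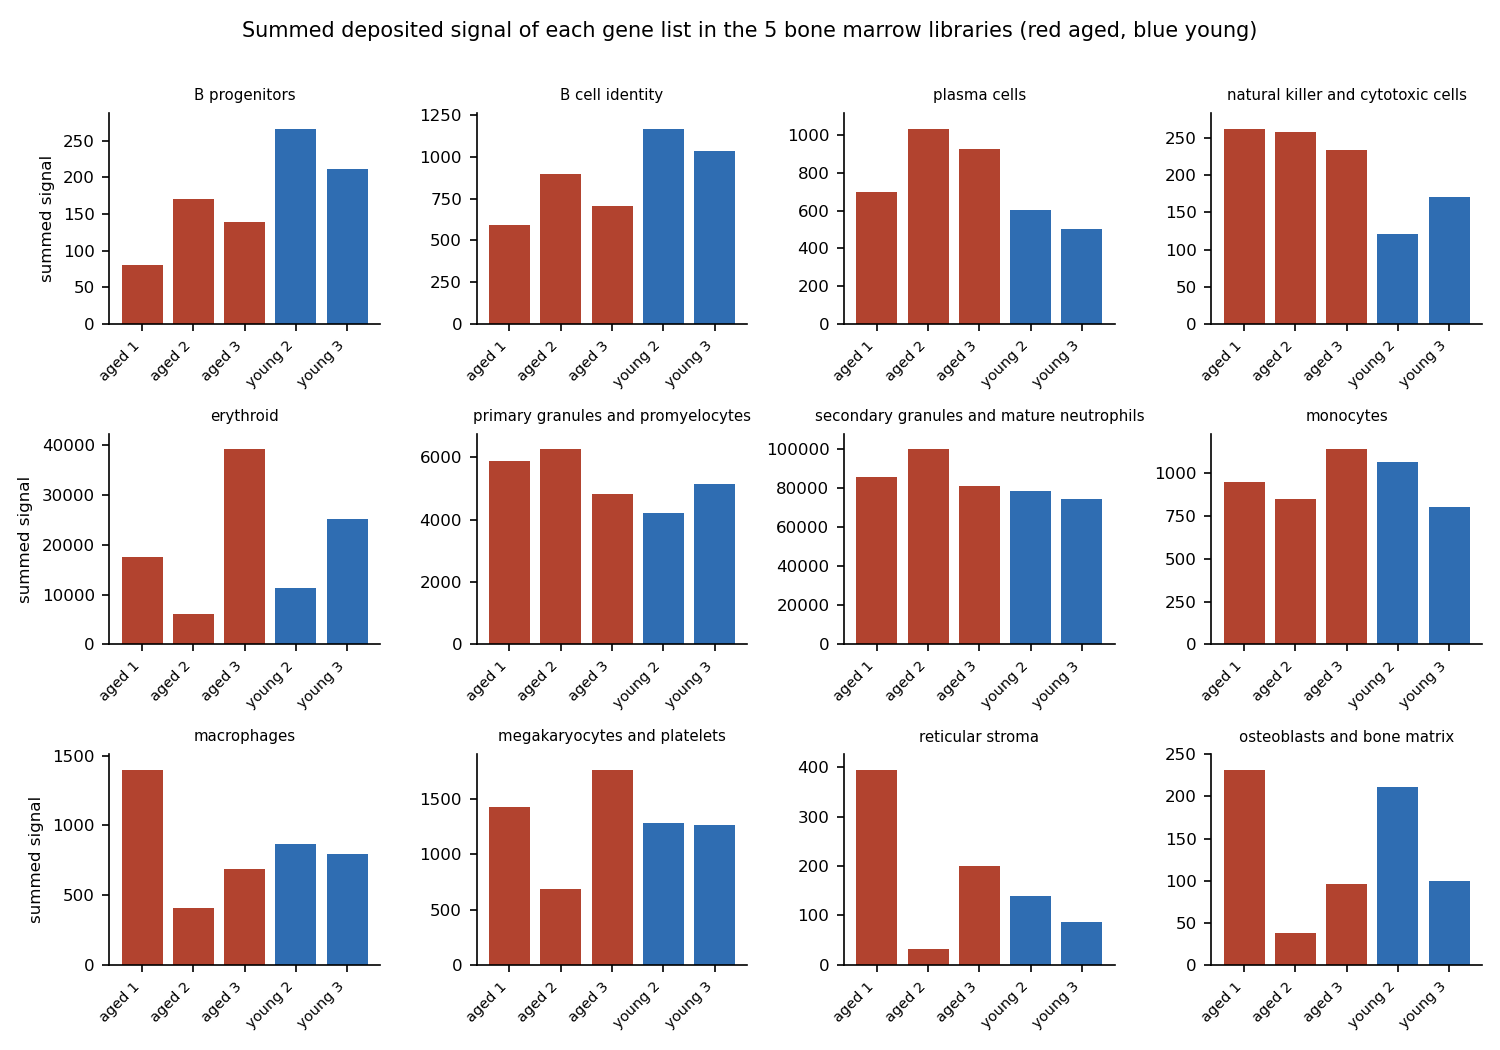
Summed deposited signal of 12 gene lists in each bone marrow library (bars from 0; aged in red on the left, young in blue on the right). The aged bars are below both young bars for the B lists and above both for plasma, cytotoxic and secondary granule genes. The erythroid sum runs from 6058 units in aged library 2 to 39177 in aged library 3.

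Erythroid sums varied more among the aged animals than between the group means. Of 32 listed genes, 30 were measured; rows with identical values count once (Hba-a1 with Hba-a2, and Hbb-b2 with Hbb-bt, whose reads cannot be told apart), which leaves 28, all tested, with 12 above 0 and 16 below and a median of -0.10. The list sum was 17472, 6058 and 39177 units in aged marrow, against 11218 and 25134 in young marrow. Hba-a1, alpha globin, was at 5277, 2119 and 13955 in aged marrow, against 3251 and 8765 in young marrow (log2 difference 0.01 ± 1.10). Alas2, the first enzyme of haem synthesis in red cells, was at 172, 61.1 and 363 in aged marrow, against 104 and 268 in young marrow. Aged library 2 was the lowest of the 5 for 19 of the 28 genes and aged library 3 the highest for 15.

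Klf1, an erythroid transcription factor, was at 82.6, 50.1 and 43.7 in aged marrow, against 62.0 and 107 in young marrow (log2 difference -0.52), and Epor, the erythropoietin receptor, was at 44.0, 23.4 and 38.9, against 50.6 and 46.8 (log2 difference -0.49). The lowest p of the list belonged to 3 genes that young library 2 lists at 0. Trim58, a ubiquitin ligase of late erythroblasts, was at 9.99, 6.50 and 14.4 in aged marrow, against 0 and 5.73 in young marrow. Sptb, the beta chain of spectrin in the red cell membrane skeleton, was at 5.45, 5.85 and 8.002 in aged marrow, against 0 and 4.77 in young marrow. Epb42, another protein of that skeleton, was at 14.5, 3.25 and 9.60 in aged marrow, against 0 and 3.82 in young marrow. In this library 1 read was worth 1.63 units, so a 0 lies within a few reads of the level in young library 3.

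Granule genes lay mostly above 0, by small differences that did not pass the test. All 8 primary granule and promyelocyte genes were tested and lay above 0, with a median log2 difference of 0.28; in 2 of them the aged libraries lay above both young ones (12.0% of all genes did), and none was called. Mpo was at 1842, 2010 and 1521 in aged marrow, against 1374 and 1683 in young marrow (log2 difference 0.23 ± 0.19, adjusted p = 0.868, limma). Prtn3, proteinase 3, was at 1371, 1388 and 961 in aged marrow, against 912 and 1112 in young marrow. Elane, neutrophil elastase, was at 1418, 1586 and 1295 in aged marrow, against 945 and 1456 in young marrow, and Ctsg, cathepsin G, at 528, 456 and 381, against 418 and 306. The peroxidase and the 3 proteases overlapped between the groups. Fcnb, a lectin of myeloid progenitors, was at 311, 415 and 330 in aged marrow, against 210 and 294 in young marrow (log2 difference 0.49), without overlap. Ms4a3, a membrane protein of granulocyte progenitors, was at 186, 185 and 175 in aged marrow, against 148 and 146 in young marrow, also without overlap.

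Of the 21 secondary granule and mature neutrophil genes, all tested, 19 lay above 0 and 2 below, with a median of 0.21. In 9 the aged libraries lay above both young ones (12.0% of all genes did) and in none below (9.79%); 5 had an unadjusted p under 0.05, all higher (4.28%), and none was called. Ngp, neutrophilic granule protein, was at 9807, 12853 and 11883 in aged marrow, against 7691 and 7997 in young marrow (log2 difference 0.55 ± 0.17, adjusted p = 0.522, limma). Lcn2, the iron-scavenging lipocalin of secondary granules, was at 4560, 5722 and 4786 in aged marrow, against 3322 and 3908 in young marrow (log2 difference 0.47). Camp, the cathelicidin precursor, was at 6819, 8300 and 5949 in aged marrow, against 5166 and 5539 in young marrow (log2 difference 0.38). Fpr2, a receptor for formyl peptides, was at 267, 326 and 264 in aged marrow, against 150 and 230 in young marrow, and Olfm4, a granule protein of a subset of neutrophils, at 42.7, 39.0 and 38.9, against 19.6 and 32.5.

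S100a9 was at 33120, 33663 and 24005 in aged marrow, against 33734 and 27521 in young marrow (log2 difference -0.03 ± 0.18, adjusted p = 0.992, limma). It took 4.18% to 6.02% of the summed signal of the aged libraries, against 5.02% to 6.47% in the young ones. Aged library 2, the lowest for red cell genes, was the highest of the 5 for 15 of the 21 secondary granule genes and for 6 of the 8 primary granule genes.

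Of 13 eosinophil, basophil and mast cell genes, 12 were tested, 7 above 0 and 5 below, with a median of 0.07. Fcer1a, the IgE-binding chain of the receptor on basophils and mast cells, was at 10.9, 12.4 and 18.7 in aged marrow, against 3.26 and 4.77 in young marrow (log2 difference 1.58 ± 0.45, adjusted p = 0.489, limma). Cpa3, a mast cell and basophil protease, was at 16.3, 22.1 and 20.3 in aged marrow, against 11.4 and 16.2 in young marrow. Mcpt8, a basophil protease, was at 68.1, 122 and 122 in aged marrow, against 75.1 and 71.6 in young marrow. Ccr3, the eotaxin receptor of eosinophils, was at 6.36, 1.95 and 2.67 in aged marrow, against 11.4 and 5.73 in young marrow, and Ear1, an eosinophil ribonuclease, at 82.0, 139 and 81.0, against 126 and 110. The groups do not overlap for Fcer1a and Cpa3, 2 of the 12 tested (12.0% of all genes lay higher so), and overlap for the other 3. None passed.

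Of the 9 monocyte genes, all tested, 6 lay above 0 and 3 below, with a median of 0.16. Csf1r, the receptor for macrophage colony-stimulating factor, was at 101, 87.8 and 107 in aged marrow, against 83.2 and 72.6 in young marrow (log2 difference 0.33). Ccr2, the receptor that takes monocytes out of the marrow, was at 111, 111 and 153, against 114 and 106 in young marrow. Macrophage genes were all tested as well: 12 of 14 lay below 0, with a median of -0.25. Of the 14, 13 overlapped between the groups and 1, Cd163, lay lower without overlap (9.79% of all genes did). Aged library 2 was the lowest of the 5 for 13 of the 14 genes while aged library 1 was the highest for 11. Mrc1, the mannose receptor, was at 33.6, 8.45 and 23.1 in aged marrow, against 35.9 and 21.0 in young marrow. Mertk, which takes up apoptotic cells, was at 30.0, 9.75 and 15.5, against 27.7 and 20.1 in young marrow, and Spic, a factor of iron-recycling macrophages, at 18.2, 2.28 and 7.47, against 11.4 and 9.55.

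Megakaryocyte and platelet genes were measured in all 22 cases and tested in 21, with 4 above 0, 17 below and a median of -0.19; none had an unadjusted p under 0.05. The list sum was 1430, 683 and 1766 units in aged marrow, against 1287 and 1261 in young marrow. Gp1bb, a chain of the receptor for von Willebrand factor, was at 79.9, 90.4 and 79.5 in aged marrow, against 55.5 and 66.8 in young marrow (log2 difference 0.44), without overlap. Fli1, a megakaryocyte transcription factor also present in other blood cells, was at 32.8, 30.6 and 41.3 in aged marrow, against 21.2 and 28.7 in young marrow, also without overlap. These were the only 2 of the 21 without overlap (12.0% of all genes lay higher so). Nbeal2 was at 114, 99.5 and 81.1 in aged marrow, against 113 and 118 in young marrow (log2 difference -0.24). Gp6 was at 1.54, 0.826 and 5.87, against 6.53 and 2.34 in young marrow (log2 difference -0.68), and both overlap. Aged library 2 was the lowest for 15 of the 21 genes and aged library 3 the highest for 11.

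Stem and progenitor genes were near the limit of detection at this depth: 9 of 15 passed the filter, 3 above 0 and 6 below, with a median of -0.08. Ly6a, the Sca-1 antigen, which stem cells carry and which lymphocytes and endothelium also carry, was at 51.8, 99.5 and 93.9 in aged marrow, against 27.2 and 32.7 in young marrow (log2 difference 1.37 ± 0.28, adjusted p = 0.086, limma). The groups do not overlap. Hoxa9, a transcription factor of stem and progenitor cells, was at 0.908, 1.30 and 5.87, against 6.53 and 3.82 in young marrow, and Cd34, a surface protein of progenitors and endothelium, at 9.08, 27.3 and 32.5, against 6.53 and 26.7. Both overlap.

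Stromal sums varied more among the aged animals than between the group means. Of 12 reticular stroma genes 5 passed the filter, and their list sum was 395, 31.9 and 201 units in aged marrow, against 139 and 85.9 in young marrow. Cxcl12, the chemokine that holds blood progenitors and plasma cells in the marrow, was at 165, 14.95 and 105 in aged marrow, against 70.2 and 38.2 in young marrow (log2 difference 0.31 ± 1.32, adjusted p = 0.983, limma). Igfbp5, a binding protein of insulin-like growth factors, was at 182, 12.4 and 72.3 in aged marrow, against 39.3 and 37.2 in young marrow. Lepr, the leptin receptor of perivascular stromal cells, was at 9.08, 0 and 4.80, against 9.79 and 0 in young marrow. Aged library 1 held the most and aged library 2 the least for both Cxcl12 and Igfbp5.

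Of 17 osteoblast and bone matrix genes 9 were tested, 4 above 0 and 5 below. Col1a1, a chain of the collagen of bone, was at 46.3, 2.08 and 14.4 in aged marrow, against 45.7 and 22.0 in young marrow (log2 difference -1.34 ± 1.45), and Ibsp, a bone matrix protein, at 13.6, 1.95 and 6.40, against 14.7 and 11.5. Of 8 osteoclast genes 3 were tested. Nfatc1, the osteoclast transcription factor that lymphocytes also use, was at 13.6, 14.95 and 26.7 in aged marrow, against 4.90 and 12.4 in young marrow, without overlap.

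Of 13 endothelial genes 8 were tested, 4 on each side of 0. In 3 of the 8, Stab2, Kdr and Pecam1, the aged libraries lay below both young ones (9.79% of all genes did), and in none above (12.0%). All aged values of Kdr lay under the filter value, so its direction was fixed by the filter. Stab2, a scavenger receptor of sinusoidal endothelium, was at 5.45, 5.20 and 3.73 in aged marrow, against 13.1 and 10.6 in young marrow (log2 difference -1.16 ± 0.47, adjusted p = 0.712, limma), without overlap. Of 12 fat cell genes 7 were tested, 2 above 0 and 5 below. Plin4, a lipid droplet protein, was at 1.82, 1.30 and 2.13 in aged marrow, against 6.53 and 12.4 in young marrow, and Cfd, the complement factor adipsin, at 4.54, 1.30 and 0, against 6.53 and 12.4. All aged values of Plin4 lay under the filter value of 3.63 units. It was tested only through the young libraries, so its direction was fixed by the filter. Fabp4, a fatty acid carrier of fat cells and endothelium, overlapped, at 46.3, 14.95 and 24.0, against 26.1 and 14.3 in young marrow. No stromal, endothelial or fat cell gene passed the test.

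**Figure D4:**
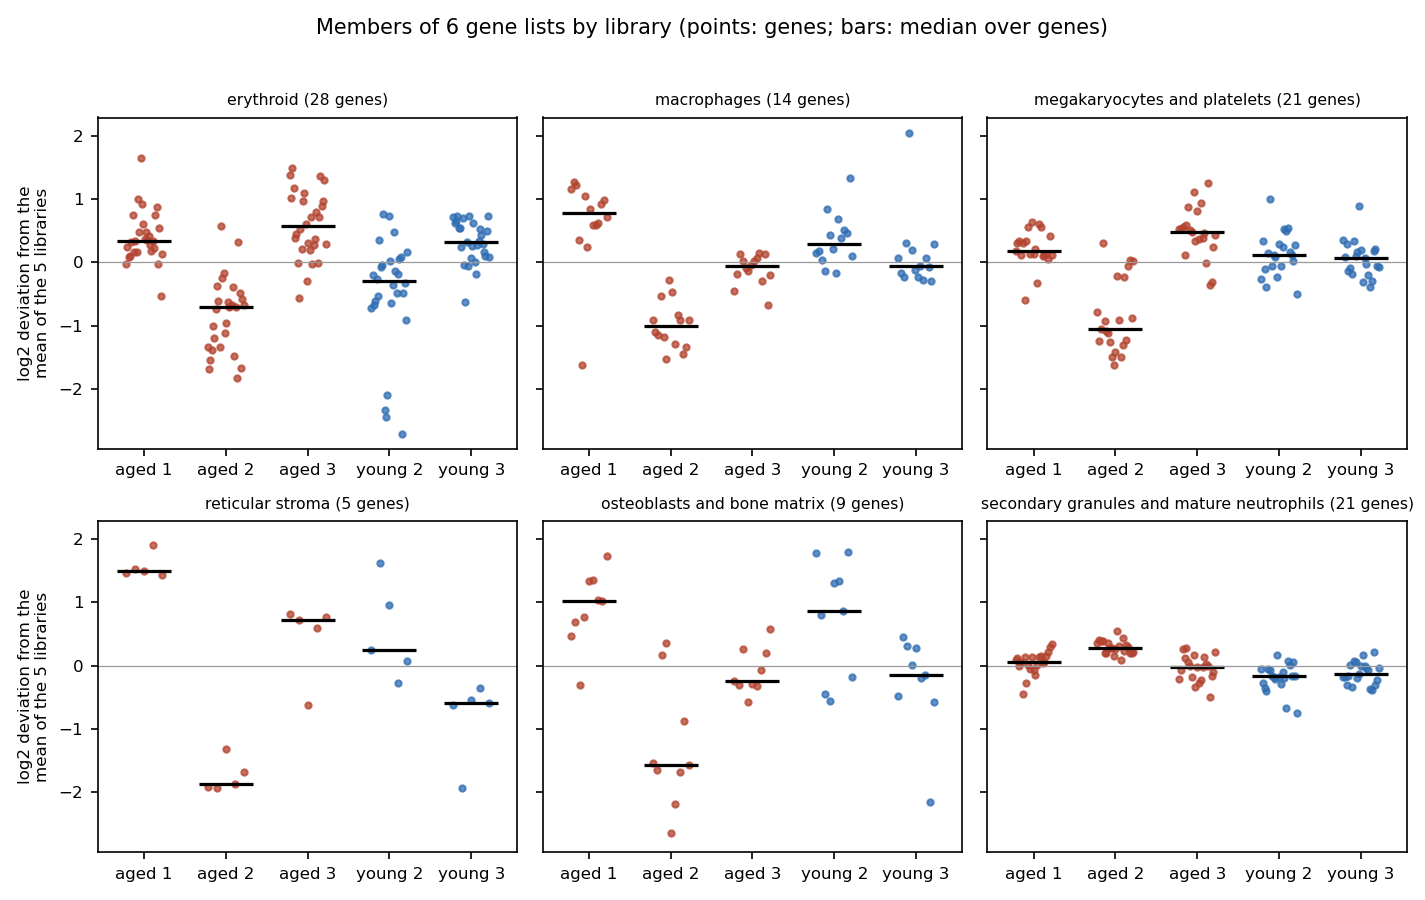
Log2 deviation of each tested gene from its mean over the 5 bone marrow libraries, for 6 gene lists (points are genes, bars their median; aged left, young right). Aged library 2 is the lowest library for 19 of 28 erythroid, 13 of 14 macrophage, 15 of 21 megakaryocyte and 4 of 5 reticular stroma genes (tied with young library 3 for the fifth), and the highest for 15 of 21 secondary granule genes.

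Aged library 2 had the lowest sum of the 5 libraries for erythroid, macrophage, megakaryocyte, reticular and bone matrix genes, and the highest plasma cell sum. Aged libraries 1 and 3 differed between themselves as well, with macrophage sums of 1400 and 691 units beside 405 in aged library 2, and bone matrix sums of 232 and 95.8 units beside 38.3. The part of this library in the results was not tested beyond leaving it out. Without it the median of the B progenitor list and that of the plasma cell list kept their signs, as they did in each of the 14 settings run, with ranges of -1.21 to -0.67 and 0.51 to 0.82.

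Cell cycle and interferon genes lay on both sides of 0. Of 23 proliferation genes 10 lay above 0 and 13 below, with a median of -0.05, and of 19 tested genes of the type I interferon response 8 lay above and 11 below, with a median of -0.11. Oasl2, an interferon-induced protein of the oligoadenylate synthetase family, was the only interferon gene of the list with an unadjusted p under 0.05, at 29.1, 28.6 and 32.0 in aged marrow, against 17.9 and 15.3 in young marrow (adjusted p = 0.648, limma). Of 9 MHC class II genes 3 lay above 0 and 6 below, with a median of -0.10.

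The age difference in marrow was set against that in spleen, the other organ of blood formation in the mouse. The spleen library of young mouse 2 was left out because it held 36247 units over 6 lung genes, against 37.3 to 86.9 in the other spleen libraries. Of 11677 genes tested, 10 had an adjusted p under 0.05 (0.0856%), all with a lower age difference in marrow than in spleen; none was called the other way, and 545 (4.67%) had an unadjusted p under 0.05 in either direction. Marrow and spleen came from the same animals on the aged side, and on the young side only mouse 3 gave both organs. With the mouse as a block 22 genes were called, the 10 among them. The pairing of that fit rests on a single young animal, so it adds little on the young side. Without young marrow library 2 the count was 4. With the spleen of young mouse 2 put back, 7 genes were called, 6 of the 10 among them; Lcn2, Chil3, Ltf and Prg2 no longer passed.

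Of the 10 genes, 9 are known from neutrophils, macrophages or eosinophils, and in spleen their aged values lay above the young ones. Mpo was at 34.4, 51.6 and 54.6 units in aged spleen, against 3.17 and 1.96 in the spleens of young mice 1 and 3, a log2 difference of 3.75, while it was 0.23 in marrow (contrast -3.52 ± 0.33, adjusted p = 9.94e-06, limma). Camp was at 60.8, 138 and 144 in aged spleen, against 5.29 and 3.93 in young spleen (contrast -3.90 ± 0.43, adjusted p = 0.000983, limma). Prtn3 was at 15.9, 41.5 and 34.2 in aged spleen, against 1.06 and 0.982 in young spleen, where the young values equal 1 read. Lcn2 was at 63.5, 115 and 93.5 in aged spleen, against 3.17 and 9.82 in young spleen; the spleen library left out held 77.6, and with it the contrast was -2.08 (adjusted p = 0.965, limma), against -3.26 without it. S100a9 was at 361, 565 and 532 in aged spleen, against 144 and 124 in young spleen (contrast -1.86 ± 0.27, adjusted p = 0.0029, limma). The aged spleens lay above both young spleens for all 5 genes, which follows largely from their choice as called genes of the contrast. C130026I21Rik, the other gene, was at 88.3, 63.1 and 61.3 in aged spleen, against 0.529 and 0.140 in young spleen, below 1 read. Its young values in both organs lay under the filter value of this fit, 3.87 units. The direction of its age difference in each organ thus follows largely from the filter.

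In spleen itself 5 of 8 primary granule genes and 10 of 21 secondary granule genes were called higher in the aged animals (0.377% of all genes tested were), with median log2 differences of 2.11 and 1.09, beside 0.28 and 0.21 in marrow. With the spleen of young mouse 2 put back, a setting added after the data were seen for these counts, 4 and 6 were called (0.300% of all genes tested). Elane was not among them, at 360, 445 and 414 in aged spleen, against 477 and 468 in young spleen. None of the lymphoid genes named for marrow differed between the organs by this test. Jchain was at 699, 419 and 320 in aged spleen, against 189 and 190 in young spleen (contrast 0.24 ± 0.43, adjusted p = 0.989, limma). Cd79a was at 315, 435 and 347 in aged spleen, against 422 and 420 in young spleen, and its contrast was -0.89 ± 0.32 (adjusted p = 0.949, limma). Tmem176a was at 99.1, 116 and 115 in aged spleen, against 94.2 and 105 in young spleen (contrast 1.46 ± 0.33, adjusted p = 0.225, limma).

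**Figure D5:**
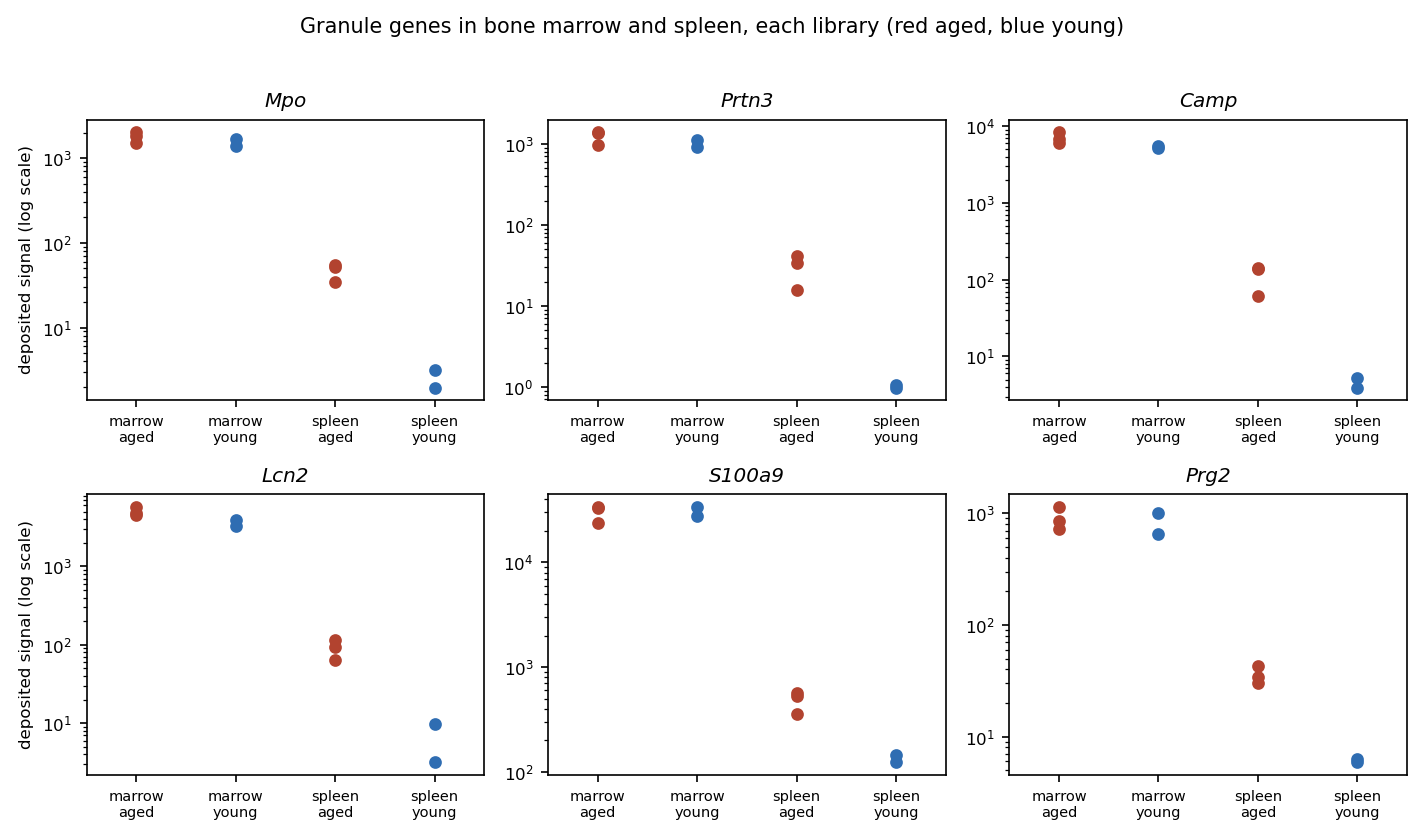
Deposited signal (log scale) of 6 granule genes in each library of aged and young bone marrow and of aged and young spleen, without the spleen of young mouse 2. The marrow groups lie close together, and the aged spleens lie above the young spleens, as for Mpo at 34.4 to 54.6 against 1.96 to 3.17 units. For genes called in the contrast this follows largely from their choice.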

How the data were processed

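Total RNA of bone marrow and spleen was sequenced by the authors, and 1 deposited table holds 25865 RefSeq transcripts in 63 libraries of mapped tissue samples; 1 further column matches no listed sample and was not used. The submitters' processing notes name TopHat and the mouse build mm9; no version, counter or scaling is given in the sources used here. What the authors deposited is a normalised signal that, from its steps, looks like fractional reads over a factor per library. The most frequent step of a column is the value worth 1 read; within a tolerance of 0.001, 78.3% to 82.2% of the marrow values above 0 were whole multiples of it, so whole reads were not recovered and no count model was run.

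Transcripts were named by accession (25311), by current or older symbol (366 and 88) or as in the table, and the transcript with the highest mean over the 5 marrow libraries was kept, giving 20644 genes. Depth is the column sum over these divided by the value worth 1 read. Linear models (limma 3.58.1, R 4.3.3, eBayes with a trend and robust variances) were fitted to log2(value + pseudocount), where the pseudocount is the median value worth 1 read, 0.908 in marrow and 0.968 in marrow with spleen; a far smaller one would set 0 and 1 read several log2 units apart. A gene was tested where at least 2 libraries exceeded 4 times the pseudocount, with calls at p under 0.05 after Benjamini-Hochberg adjustment over all of them. Where every library of a group lay under this value, the gene was tested only through the other group, and its direction follows largely from the filter. The scripts were tested on simulated data. Each library is 1 animal. The variance behind each p-value and SE is moderated by eBayes. It mixes the spread of the gene between these few animals with that of other genes at a similar level. The contrast with spleen used 4 groups without the spleen of young mouse 2. Same-animal pairs of marrow and spleen correlated in their deviations from the group means by r = 0.101, 0.113, -0.007 and 0.0894. With 2 young libraries per organ, the young value, 0.0894, has the same size for pairs of different animals, so only its sign could vary. The pairing comes from the labels, which give the mouse for each organ.

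Some genes that the rule below names are not reported here. The members and lists were chosen with earlier results of these data known. Genes named are the called genes, filled up by p to 5 in each direction, up to 5 members with the smallest p per lineage list, and S100a9, Mpo and Cd79a; for spleen also the 5 called genes with the largest difference in each direction. Tmem176b, Cep19, Hba-a1, Alas2, Ttr, Btk, Il7r, Igll1, Blnk, Cd22, Pax5, Tnfrsf13b, Tnfrsf17, Eaf2, Tbx21, Cd5, Oasl2 and, among the contrast genes, Ltf, Prg2, S100a8 and Chil3 were named after their values were seen. Alternatives were other pseudocounts, filters, scalings, variance models, rows per gene, a shared fit, blocks and leaving out each library. Motifs were searched with Python 3.11.15. Symbols follow RefSeq; promoter sequences are RefSeq's on GRCm38.p6, not the build of the files.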

Additional observations from a re-analysis of the deposited data

Results flagged for a closer look

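In 10 genes the age difference in bone marrow differed from that in spleen by the test of the contrast, with limma and adjusted p under 0.05, and each log2 contrast, marrow minus spleen, was negative. For primary granule genes it was -3.52 for Mpo and -3.60 for Prtn3. For secondary granule genes it was -3.22 for Ltf (lactoferrin), -3.90 for Camp and -3.26 for Lcn2. For the calcium-binding proteins of neutrophils it was -1.86 for S100a9 and -1.59 for S100a8. It was -2.22 for Prg2, the major basic protein of eosinophils, and -2.44 for Chil3, a chitinase-like protein of neutrophils and macrophages. For C130026I21Rik, whose near-identical copies may share its reads, it was -3.54. Lcn2 and Chil3 were at 77.6 and 178 units in the spleen of young mouse 2, the library left out because of its lung genes. With that library put back the contrast was -2.08 for Lcn2 (adjusted p = 0.965, limma) and -1.05 for Chil3 (adjusted p = 0.977, limma). Each passed in 8 of the 18 other settings run, with contrasts from -3.95 to -2.08 for Lcn2 and from -2.68 to -1.05 for Chil3. Groups of 3 and 2 libraries are too small for the check of single libraries that stand apart.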

How the results depend on the processing

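Of the 5 genes called in bone marrow, quantile normalization gave 5, median-of-ratios scaling 4 and the sum over transcripts 4. No gene was called with the pseudocount at the smallest value above 0, without the filter, without the limma trend or with voom weights (0 each; 898, 922, 673 and 624 genes at an unadjusted p under 0.05). A fit of all tissue libraries together called 3, of which 0 were among the 5; the cause was not tested. Leaving out 1 library gave 0 to 44 calls: 0 without aged library 1, 2 or 3 or young library 2, and 44 (41 higher, 3 lower) without young library 3. For the contrast with spleen (10 calls) the smallest-value pseudocount gave 18, limma without the trend 0 (596 at an unadjusted p under 0.05), voom weights 4 and the library of young mouse 2 put back 7; leaving out 1 library gave 4 to 15 calls, with 4 without young marrow library 2.

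With the replicate number as a block, marrow gave 19 calls (12 higher, 7 lower, all 5 among them), and Cd163, Derl3, Ly6a, Col1a1 and Col1a2 passed there. Aged and young mice with the same number are different animals, so the number does not pair animals. Their deviations correlated by -0.0668 and -0.033. With 2 young libraries the deviations mirror each other, so these values cannot show whether libraries of the same number share a step of handling. That was not tested. With the mouse as a block the contrast gave 22 calls (6 higher, 16 lower), but of the young animals used only mouse 3 gave both organs.

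Over the 14 other settings the 5 genes called in marrow passed in 21 of 70 cases: Ccl5, Tmem176a and Niban3 in 5 settings each, Jchain in 4 and Pigx in 2. Their signs held. The 10 contrast genes passed in 137 of 180 cases over 18 settings. List medians moved by less than their spread in 245 of 252. Signs held in all 14 settings for the lists of B progenitors, B identity, plasma cells, cytotoxic cells, monocytes, both granule lists and bone matrix. The bone matrix median ran from -1.23 to -0.0043, and in the fit with spleen its marrow median was 0.118 over 10 genes. Its sign is thus not firm. The depth of young library 2 limits genes of a few reads.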
